A study of Rattus norvegicus with 30 samples.

Results

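The renin-angiotensin system genes described here are *Agt*, *Ace*, *Agtr1a*, *Agtr1b*, *Mme*, *Enpep*, *Atp6ap2* and *Mas1*, chosen by symbol with earlier results of these data known. All 8 were found among the 32545 genes of the count table. Poly(A) RNA was sequenced from 30 samples of the right kidney of male Sprague-Dawley rats, an outbred strain, with 5 libraries in each of 6 groups. The cortex (Cx) and the outer medulla (OM) were taken from rats kept on a diet with 0.4% NaCl (LS) and from rats fed 4.0% NaCl for 14 d (HS14) or 21 d (HS21). All rats had the LS diet first, and the labels give no age. Replicates 1 to 5 are LS, 6 to 10 are HS14 and 11 to 15 are HS21 in both tissues. Per the study's methods, the kidneys collected in each group were divided into both tissues, so the Cx and OM libraries of a group share rats, but whether an equal number marks the same rat is not stated. The tissues were fitted without pairing, and *P* values judge group differences against the spread between these libraries.

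In this hormone system, angiotensinogen (*Agt*) is the precursor protein, and angiotensin-converting enzyme (*Ace*) turns the peptide cut from it into angiotensin II. The type 1 receptors, of which rodents have the pair *Agtr1a* and *Agtr1b*, mediate vasoconstriction and tubular Na+ reabsorption. Cell-surface peptidases, among them neprilysin (*Mme*) and aminopeptidase A (*Enpep*), cut angiotensin peptides further, and *Mas1* encodes a receptor for a vasodilator product. High salt intake is known to suppress the system in the circulation, and the kidney has a local one, with *Agt* made in the proximal tubule.

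Between 5408126 and 21842843 counts fell on genes in each library, and OM HS14 replicate 10 was the shallowest. Per the study's mapping summary, that library also had the lowest exonic and the highest intronic share of mapped bases. Levels are given as CPM, the count as a share of the library total on a scale common to all libraries, after TMM scaling, which corrects for differences in composition. The labelled tissues differed in their markers on the LS diet. All 6 podocyte markers were lower and all 4 markers of the thick ascending limb were higher in OM than in Cx. Of 7 proximal tubule markers 6 were lower in the OM, and of 3 markers of S3, the straight end of the proximal tubule that reaches into the OM, 2 were higher. At an adjusted *P* under 0.05 in edgeR, 21.3% of all genes tested were higher in the OM and 19.5% were lower. A pair of OM LS libraries stood apart, since the summed level of the 7 proximal tubule markers was 11860 CPM in replicate 2 and 559 CPM in replicate 5. Replicate 2 also had the highest summed podocyte markers of all OM libraries, at 307 CPM. Its distal convoluted tubule markers summed to 371 CPM, against at most 54.2 CPM in OM HS14 and 61.9 CPM in OM HS21. Cx HS14 replicate 10 had the lowest proximal tubule sum of its group, at 13320 CPM against 18480 CPM in the highest.

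Per kilobase of gene length, *Atp6ap2* had the highest level of the members in Cx LS, at 109 ± 1.32 CPM per kb (SD, n = 5). It was followed by *Enpep* at 76.1 ± 10.3 CPM per kb, *Agtr1a* at 27.8 ± 1.44 and *Mme* at 22.4 ± 6.395. *Agt* at 2.80 ± 1.63 CPM per kb, *Agtr1b* at 2.14 ± 0.322, *Ace* at 0.798 ± 0.227 and *Mas1* at 0.275 ± 0.0662 stood far below. *Agtr1a* and *Mme* overlapped between libraries, as did *Agt* and *Agtr1b*, so the order within these pairs was not resolved. In OM LS the order was led by *Mme*, at 162 ± 76.6 CPM per kb, before *Atp6ap2* at 101.5 ± 10.4, *Enpep* at 37.0 ± 37.5 and *Agt* at 31.3 ± 20.2. There *Agtr1a* had 15.7 ± 4.24 CPM per kb, *Ace* 5.02 ± 2.11, *Agtr1b* 1.401 ± 0.279 and *Mas1* 0.105 ± 0.0704. *Mme* overlapped between libraries with *Atp6ap2* and *Enpep*, and *Enpep*, from 7.06 to 101.2 CPM per kb, overlapped with *Mme*, *Atp6ap2*, *Agt*, *Agtr1a* and *Ace*. *Agt* and *Agtr1a* overlapped too, whereas every library of *Mme* and *Atp6ap2* was above every library of *Agt*.

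**Figure D1:**
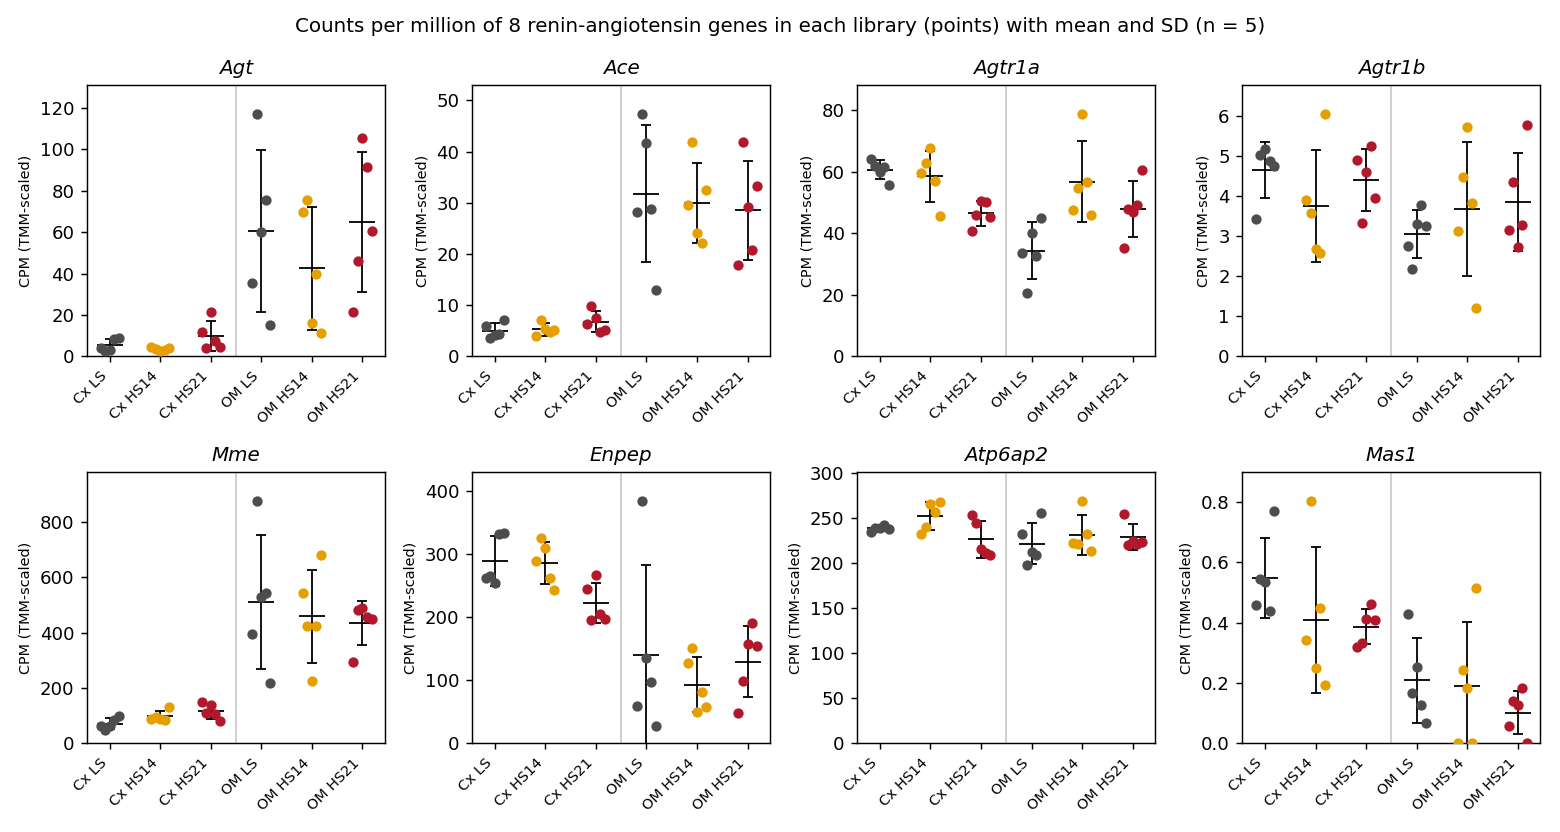
Level of each of the 8 members in every library, in CPM on linear axes that start at 0, with 1 panel per gene and the 6 groups of Cx and OM on the horizontal axis. Points are libraries, horizontal marks are means and bars are SD (n = 5), with bars cut off at 0 where the SD exceeded the mean. *Agt*, *Ace* and *Mme* were higher in OM LS than in Cx LS, and *Agtr1a* was lower in Cx HS21 (40.7 to 50.6 CPM) than in Cx LS (55.8 to 64.3 CPM).

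The first question was whether these genes differed between the HS and the LS diet in the Cx. At HS21, *Agtr1a* and *Enpep* fell and *Mme* rose, while *Agt*, *Ace*, *Agtr1b* and *Atp6ap2* did not pass the test. *Agtr1a*, the main angiotensin II receptor gene of the rodent kidney, fell 1.32-fold, and *Enpep*, whose product removes the first residue of angiotensin II, fell 1.31-fold. *Mme*, which encodes neprilysin, rose 1.62-fold. A gene was called at an adjusted *P* under 0.05 in edgeR's quasi-likelihood test, with Benjamini-Hochberg adjustment over all genes tested. Of 14299 genes tested, 39.4% were called in this comparison, and of the 7 members tested 3 were called, a share close to that background. The median log2 ratio was -0.09 over the members and 0.00 over all genes. *Mas1*, with at most 12 counts in any library, did not pass the filter on low counts in any comparison. The comparisons at HS14 and HS21 share the LS libraries.

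Markers of cell types moved in the same libraries. All 7 proximal tubule markers fell at HS21 by a median of -0.71 on the log2 scale, and their summed level was 18020 to 20110 CPM in Cx LS, 13320 to 18480 CPM in Cx HS14 and 10650 to 14130 CPM in Cx HS21. Of the thick ascending limb markers 3 of 4 rose, as did both tested markers of the distal convoluted tubule, 3 of 4 of the collecting duct, 5 of 6 of podocytes and 3 of 6 of endothelium. All 5 leukocyte markers rose, with a median of 1.86, and their summed level was 73.0 to 102 CPM in Cx LS, 113 to 166 CPM in Cx HS14 and 161 to 498 CPM in Cx HS21. The summed level of the S3 markers was 34.8 to 138 CPM in Cx LS and 61.1 to 210 CPM in Cx HS21, and 1 of the 3, *Slc22a7*, rose. Of 7 vascular smooth muscle and pericyte markers 1 rose and 1 fell, and of 6 fibroblast markers 1 rose. *Pvalb*, a marker of the distal convoluted tubule, was at 0 in all libraries. *Slc22a7* and *Pvalb* are named after their values were seen. In bulk tissue, fewer cells of a type and less RNA per cell cannot be told apart, and the part of cell composition in the members' differences was not tested.

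Of the members that make angiotensin II, *Agt* (ENSRNOG00000018445, chr19:57321640-57333433, minus strand, build Rnor_6.0) varied widely between rats. It had 4.12, 2.48, 2.89, 8.46 and 9.11 CPM in Cx LS replicates 1 to 5, 4.38, 3.43, 2.55, 3.19 and 3.87 CPM in Cx HS14, and 11.9, 4.27, 21.6, 7.23 and 4.49 CPM in Cx HS21. Replicates 11 and 13 of HS21 were above all other Cx libraries, and the other HS21 libraries lay within the range of LS. Against LS, the log2 ratio was -0.66 at HS14 (SE 0.35, adjusted *P* = 0.370) and 0.85 at HS21 (SE 0.50, adjusted *P* = 0.199). *Ace* (ENSRNOG00000007467, chr10:94170789-94206535, plus strand) had 3.65 to 7.12 CPM at LS, 3.97 to 7.16 CPM at HS14 and 4.86 to 9.95 CPM at HS21. The 3 ranges overlapped, and the log2 ratio of *Ace* to LS was 0.04 at HS14 (95% confidence interval -0.43 to 0.51) and 0.41 at HS21 (-0.12 to 0.93).

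The peptidase gene *Enpep* (ENSRNOG00000051854, chr2:233667254-233743866, minus strand) had 262, 265, 255, 332 and 333 CPM in Cx LS and 245, 196, 267, 205 and 197 CPM in Cx HS21. The groups overlapped, since HS21 replicate 13 was above the 3 lower LS libraries. The mean was 289 ± 39.3 CPM at LS and 222 ± 31.9 CPM at HS21 (SD, n = 5), and the difference was -0.39 on the log2 scale (SE 0.11, adjusted *P* = 0.0142). With libraries scaled by total counts, which moved the median log2 ratio of all genes to 0.13, the value for *Enpep* was -0.27 and the call was lost (adjusted *P* = 0.0685).

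*Mme* (ENSRNOG00000009514, chr2:153803349-153880738, plus strand) had 63.0, 47.2, 62.7, 83.5 and 99.1 CPM in Cx LS, 89.1, 96.3, 89.2, 83.4 and 131 CPM in Cx HS14, and 148, 108, 138, 106 and 81.1 CPM in Cx HS21. Of the LS libraries, only replicates 4 and 5 reached the level of the lowest HS libraries. The mean was 71.1 ± 20.3 CPM at LS, 97.7 ± 19.0 CPM at HS14 and 116 ± 26.7 CPM at HS21 (SD, n = 5). Against LS, the log2 ratio was 0.45 at HS14 (SE 0.19, adjusted *P* = 0.238) and 0.69 at HS21 (SE 0.20, adjusted *P* = 0.0168), and without HS14 replicate 10 the former was 0.31 (adjusted *P* = 0.380). The difference between the times was not called, with a log2 ratio of 0.25 (95% confidence interval -0.13 to 0.62).

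The receptor gene *Agtr1a* (ENSRNOG00000018346, chr17:35907108-35958077, minus strand) had 64.3, 61.9, 59.9, 61.6 and 55.8 CPM in Cx LS and 40.7, 45.9, 50.6, 50.2 and 45.3 CPM in Cx HS21. Every HS21 library lay below every LS library. Groups that did not overlap were found for 26.4% of the genes tested in this comparison and for 1 of the 7 members. The mean was 60.7 ± 3.14 CPM at LS and 46.5 ± 4.06 CPM at HS21 (SD, n = 5), and the log2 ratio was -0.40 (SE 0.07, adjusted *P* = 0.000969). An exact two-sided permutation test of its log2 CPM gave *P* = 0.00794, the smallest value that regroupings of 5 and 5 libraries allow. *Agtr1a* was called under all 7 alternative settings, and with *Enpep* and *Mme* in all 10 fits that left out a library.

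*Agtr1b* (ENSRNOG00000010640, chr2:105149020-105224295, minus strand), the other type 1 receptor gene, had 2.60 to 6.06 CPM over the 15 Cx libraries. Its log2 ratio to LS was -0.09 at HS21, with a 95% confidence interval of -0.47 to 0.28. Per kilobase, the level of *Agtr1a* was 13.4 ± 3.002 times that of *Agtr1b* in Cx LS, 17.5 ± 6.82 times in Cx HS14 and 10.8 ± 2.07 times in Cx HS21 (SD, n = 5). The pair are close paralogs, and per the study's methods the counting ran with default settings, which leave out reads placed at more than 1 site, so reads that match both would be counted for neither and the levels are uncertain. *Mas1* (ENSRNOG00000014971, chr1:48077033-48108216, plus strand) had 6 to 12 counts per library in Cx LS, 3 to 11 in Cx HS14 and 5 to 7 in Cx HS21, too few for a fold change. An exact two-sided permutation test of its log2 CPM against LS, without adjustment, gave *P* = 0.190 at HS14 and *P* = 0.0238 at HS21. With total counts the latter was 0.0635.

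*Atp6ap2* (ENSRNOG00000003858, chrX:11136939-11164915, minus strand) encodes the (pro)renin receptor, which is also an accessory protein of the vacuolar H+-ATPase. In Cx LS it had the smallest relative spread of the members, with a coefficient of variation of 1.20%. Its log2 ratio to LS was 0.06 at HS14 (95% confidence interval -0.05 to 0.18) and -0.09 at HS21 (-0.22 to 0.04).

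The 250 bases upstream of the annotated start are printed for the 3 members called at HS21 in the Cx. They are RefSeq sequences on build GRCr8, which is not the build of the counts, and 7 of the 8 members had an entry by symbol, all but *Agt*. The windows are chr17:34435433-34435682 on the minus strand for *Agtr1a*, chr2:220526219-220526468 on the minus strand for *Enpep* and chr2:149872247-149872496 on the plus strand for *Mme*. Capitals mark matches on either strand to a TATA box (TATAAA) or a GC box (GGGCGG).
Agtr1a: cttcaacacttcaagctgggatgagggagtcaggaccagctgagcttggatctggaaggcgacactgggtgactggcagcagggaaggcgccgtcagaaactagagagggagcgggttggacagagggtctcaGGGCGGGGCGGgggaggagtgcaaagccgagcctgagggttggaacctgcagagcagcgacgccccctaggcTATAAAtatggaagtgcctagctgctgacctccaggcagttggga
Enpep: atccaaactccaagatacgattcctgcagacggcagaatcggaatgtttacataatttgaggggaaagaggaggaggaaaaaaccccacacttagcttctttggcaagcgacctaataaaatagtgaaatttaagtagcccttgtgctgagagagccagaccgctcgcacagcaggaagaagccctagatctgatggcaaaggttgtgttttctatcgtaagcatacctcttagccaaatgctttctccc
Mme: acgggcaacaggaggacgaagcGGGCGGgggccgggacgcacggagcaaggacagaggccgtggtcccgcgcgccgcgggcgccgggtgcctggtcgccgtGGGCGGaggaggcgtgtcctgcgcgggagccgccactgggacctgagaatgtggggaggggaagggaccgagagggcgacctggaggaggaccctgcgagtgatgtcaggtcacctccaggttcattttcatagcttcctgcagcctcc
The window of *Agtr1a* held a TATA box at -45 to -40, counted from the start, and a pair of GC boxes, at -117 to -112 and -112 to -107, that share 1 base. The window of *Mme* held 2 GC boxes, at -228 to -223 and -149 to -144, and that of *Enpep* held neither motif. Of 33469 windows of this length, 12.9% held the TATA box and 30.5% the GC box. The core of the site of HNF1 factors (GTTAAT), regulators of proximal tubule genes, was present in 6.45% of all windows and in none of the 7. The GC content was 60.8% for *Agtr1a*, 70.4% for *Mme* and 45.2% for *Enpep*. These matches describe the letters of the windows only.

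At HS14, 2.33% of 14181 genes were called in the Cx against LS. None of the 7 members was called in edgeR or in DESeq2's Wald test, and 1 of them, *Mme*, had an unadjusted *P* under 0.05. *Agtr1a* had 59.5, 63.0, 67.8, 57.1 and 45.7 CPM at HS14. Of these libraries 4 lay within or above the range of LS, and replicate 10 lay in the range of HS21. The log2 ratio of *Agtr1a* to LS was -0.07 (SE 0.09), and 0.00 without replicate 10. *Enpep* had 289, 325, 310, 262 and 243 CPM, with replicate 10 lowest again, and a log2 ratio of -0.03 (SE 0.10). Of the proximal tubule markers 2 of 7 fell and of the leukocyte markers 4 of 5 rose at this time.

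Between HS14 and HS21 in the Cx, 16.2% of 14395 genes were called. *Agt* was higher at HS21, with a ratio of 1.51 on the log2 scale (SE 0.42, adjusted *P* = 0.0340). *Agtr1a* (-0.33, SE 0.10, adjusted *P* = 0.0434) and *Enpep* (-0.36, SE 0.11, adjusted *P* = 0.0411) were lower. No member had groups that did not overlap, against 9.28% of all genes. The 3 calls lay close to the threshold. Leaving out a library ended the call of *Agt* in 6 of 10 fits, of *Agtr1a* in 8 and of *Enpep* in 7, and replicates 6 to 9 of HS14 were among these libraries for each gene. Without Cx HS14 replicate 10, which stood apart, the log2 ratio was 1.55 for *Agt* (adjusted *P* = 0.0385), -0.41 for *Agtr1a* (adjusted *P* = 0.00624) and -0.42 for *Enpep* (adjusted *P* = 0.0203). Of the proximal tubule markers 5 of 7 were lower at HS21 than at HS14.

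**Figure D2:**
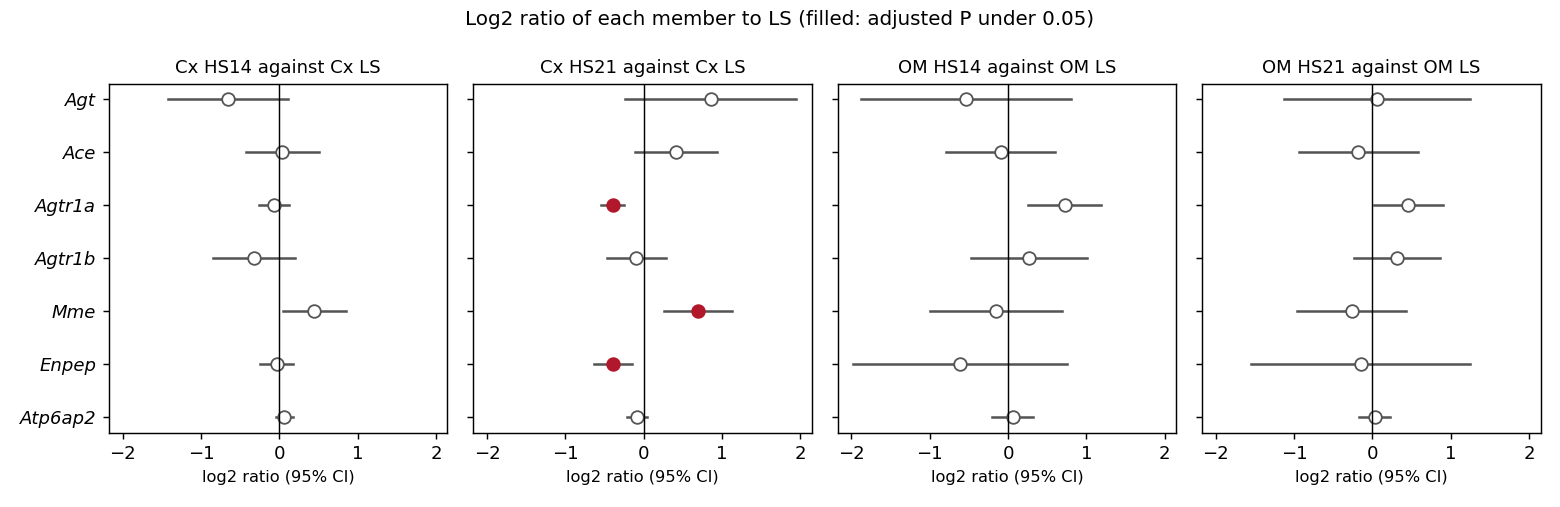
Log2 ratio of each of the 7 members tested to LS, on the horizontal axis, at HS14 and HS21 in the Cx and the OM. Bars are 95% confidence intervals and filled points mark an adjusted *P* under 0.05. The filled points are *Agtr1a* (-0.40), *Enpep* (-0.39) and *Mme* (0.69) at HS21 in the Cx, and the intervals of each gene are wider in the OM than in the Cx at both times.

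In the OM, no member passed the test at either time. Of 14417 genes 0.00694%, a single gene, were called at HS14, and of 14555 genes 0.769%, or 112 genes, were called at HS21. Leaving out single libraries gave 0 to 4 and 9 to 175 genes. At an unadjusted *P* under 0.05, 617 genes were higher and 209 lower at HS14, where DESeq2 called 110 genes and no member. *Agtr1a* had the highest log2 ratios to LS of the members at both times. It had 33.5, 20.6, 40.3, 32.5 and 44.98 CPM in OM LS, 47.5, 54.9, 78.8, 56.6 and 46.1 CPM in OM HS14, and 35.1, 47.9, 47.0, 49.2 and 60.7 CPM in OM HS21. Every OM HS14 library was above every OM LS library. Groups that did not overlap, in either direction, were found for 1.49% of all genes tested. Of the OM HS21 libraries 4 of 5 were above all of OM LS. At HS21 no member had groups that did not overlap, against 3.52% of all genes.

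The mean of *Agtr1a* was 34.4 ± 9.25 CPM in OM LS, 56.8 ± 13.1 CPM in OM HS14 and 48.0 ± 9.09 CPM in OM HS21 (SD, n = 5). Its log2 ratio to LS was 0.72 at HS14 (SE 0.21, 95% confidence interval 0.25 to 1.19, adjusted *P* = 0.560) and 0.46 at HS21 (SE 0.20, 0.02 to 0.90, adjusted *P* = 0.413) in edgeR, so neither difference passed across all genes. Exact two-sided permutation of its log2 CPM alone, with no adjustment for the other members and comparisons, gave *P* = 0.00794 at HS14 and *P* = 0.0476 at HS21, and with total counts the latter was 0.0714. Without OM LS replicate 2 the log2 ratios were 0.58 and 0.32, without OM LS replicate 5 they were 0.83 and 0.56, and without the shallow OM HS14 replicate 10 the value at HS14 was 0.77. Of 5 leukocyte markers 4 rose at HS21 in the OM, with summed levels of 65.9 to 137 CPM in OM LS and 203 to 338 CPM in OM HS21. None of the 5 tested fibroblast markers was called, with medians of 0.84 (HS14) and 0.56 (HS21), with summed levels of 306 to 623 CPM in OM LS, 584 to 1050 CPM in OM HS14 and 428 to 926 CPM in OM HS21. Their part in the values of *Agtr1a* was not tested.

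To compare the diet difference of *Agtr1a* in the OM with that in the Cx, an interaction of tissue and diet was fitted at HS21, in which 0.665% of 15194 genes and no member were called. The log2 ratio in the OM exceeded that in the Cx by 0.85 (SE 0.22, 95% confidence interval 0.40 to 1.31), with an adjusted *P* of 0.0779 in edgeR. DESeq2 gave 0.87 with an adjusted *P* of 0.0102, the only 1 of 7 alternatives to pass, and the others gave adjusted *P* up to 0.157. In edgeR the difference passed in 3 of 20 fits that left out a library, without OM LS replicate 2 (0.74, adjusted *P* = 0.0152), OM LS replicate 5 (0.97, adjusted *P* = 0.0392) or OM HS21 replicate 11 (0.95, adjusted *P* = 0.0335). In the other fits the adjusted *P* reached 0.144. *Mme* had the largest such difference of the members in size, at -0.96 (SE 0.40, adjusted *P* = 0.255).

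The other members had wide intervals in the OM. *Enpep* ranged from 26.8 to 385 CPM in OM LS, from 49.2 to 151 CPM in OM HS14 and from 48.1 to 190 CPM in OM HS21. Its log2 ratio to LS at HS21 was -0.15, and 0.67 without OM LS replicate 2, and neither was called. *Agt* ranged from 14.99 to 117 CPM at LS, from 11.2 to 75.5 CPM at HS14 and from 21.4 to 105 CPM at HS21. The HS ranges of both genes lay largely within those of LS. *Mme* had a mean of 512 ± 243 CPM in OM LS, 459 ± 169 CPM in OM HS14 and 435 ± 81.1 CPM in OM HS21, and *Ace* of 31.8 ± 13.4, 30.02 ± 7.82 and 28.6 ± 9.69 CPM. *Agtr1b* had 2.18 to 3.78 CPM in OM LS, 1.20 to 5.73 CPM in OM HS14 and 2.74 to 5.79 CPM in OM HS21. *Atp6ap2* differed from LS by a log2 ratio of 0.06 at HS14 (95% confidence interval -0.20 to 0.32) and of 0.03 at HS21 (-0.17 to 0.22). *Mas1* had 0 to 4 counts per OM HS14 library and 0 to 3 per OM HS21 library. Between HS14 and HS21 in the OM, 0% of 14499 genes were called in edgeR, with 337 higher and 210 lower at an unadjusted *P* under 0.05 and 31 called by DESeq2, and no member was called by either. Groups that did not overlap were found for 0.635% of the genes and for no member.

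Proximal tubule markers did not pass the test at HS14 or HS21 in the OM, and their summed level ran from 559 to 11860 CPM in OM LS, from 1158 to 4432 CPM in OM HS14 and from 1579 to 4122 CPM in OM HS21. *Agt*, *Enpep* and *Mme* were highest of all OM libraries in OM LS replicate 2, where the markers peaked, and *Agtr1a* was lowest there. *Enpep* and *Mme* were lowest of all OM libraries in OM LS replicate 5, where the markers were lowest.

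**Figure D3:**
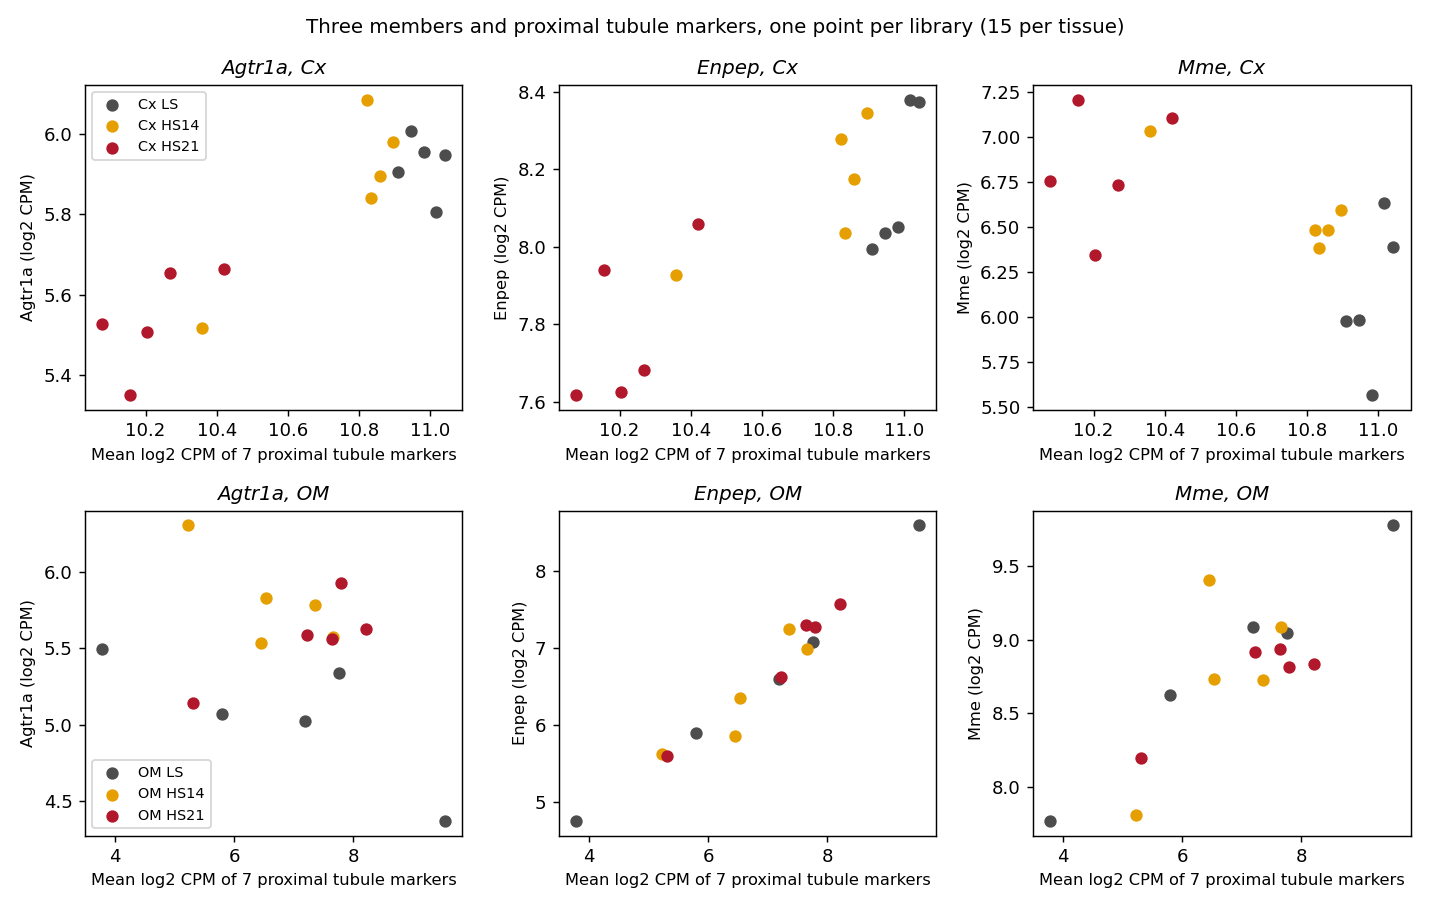
Level of *Agtr1a*, *Enpep* and *Mme* (log2 CPM, vertical axes) against the mean log2 CPM of 7 proximal tubule markers (horizontal axes) in each of the 15 libraries of the Cx and of the OM, colored by diet. In the Cx, the 5 HS21 libraries and HS14 replicate 10 lie at 10.1 to 10.4 on the marker axis and the others at 10.8 to 11.04. In the OM, LS replicate 2 lies at 9.54, with the lowest *Agtr1a* and the highest *Enpep* and *Mme*.

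The next comparison was between the tissues on the LS diet, in which 40.9% of 14295 genes were called. *Agt*, *Ace* and *Mme* were higher in the OM and *Agtr1a* and *Agtr1b* were lower, 5 of the 7 members tested. *Agt* had 35.3, 117, 60.1, 75.6 and 14.99 CPM in OM LS, all above the highest value of 9.11 CPM in Cx LS, and its log2 ratio of OM to Cx was 3.48 (SE 0.58, adjusted *P* = 0.000939), or 11.1-fold. *Ace* had 28.2, 47.3, 41.7, 28.7 and 13.03 CPM in OM LS, all above 7.12 CPM in Cx LS, a difference of 2.64 on the log2 scale (SE 0.34, adjusted *P* = 0.000194), or 6.25-fold. *Mme* had 394, 878, 528, 543 and 218 CPM in OM LS, all above 99.1 CPM in Cx LS, a difference of 2.85 on the log2 scale (SE 0.36, adjusted *P* = 0.000163), or 7.21-fold. In these 3 genes OM LS replicate 2 was the highest and replicate 5 the lowest of the group, and each was called in all 10 fits that left out a library.

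The type 1 receptor genes went the other way. *Agtr1a* was 1.78-fold lower in OM LS than in Cx LS, or -0.83 on the log2 scale (SE 0.16, adjusted *P* = 0.00254). Its groups did not overlap, which held for 4 of the 7 members and for 29.1% of all genes tested. *Agtr1b* was also lower (log2 ratio -0.61, SE 0.18, adjusted *P* = 0.0208), with 2.18 to 3.78 CPM in OM LS and 3.43 to 5.18 CPM in Cx LS. This call was lost with total counts (-0.36, adjusted *P* = 0.160) and without OM LS replicate 1 (-0.57, adjusted *P* = 0.0524). *Mas1* had 1 to 7 counts per library in OM LS and 6 to 12 in Cx LS, or 0.209 ± 0.141 and 0.548 ± 0.132 CPM, and an exact two-sided permutation test over 5 and 5 libraries gave *P* = 0.00794. The groups of *Mas1* were barely apart. OM LS replicate 1 had 7 counts (0.429 CPM) and Cx LS replicate 4 had 6 counts (0.437 CPM), so the separation depended on the TMM scaling. The permutation test of *Mas1* between the tissues was not repeated with total counts.

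*Enpep* was not called between the tissues (-1.03, SE 0.58, adjusted *P* = 0.177). OM LS replicate 2 had 385 CPM, above all of Cx LS, and the other OM LS libraries had 26.8 to 135 CPM, below all of it. Without that library the log2 ratio was -1.89 and passed (adjusted *P* = 0.00234). *Atp6ap2* differed by a log2 ratio of -0.12 (95% confidence interval -0.28 to 0.05). The summed level of the S3 markers was 949 to 6278 CPM in OM LS and 34.8 to 138 CPM in Cx LS, and the part of these cells in the higher *Agt*, *Ace* and *Mme* was not tested.

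Around the members, 13 other genes of the system were examined, of which 8 passed the filter on low counts in the Cx. At HS21 in the Cx 5 of them fell and 1 rose, against 39.4% of all genes called, 20.5% lower and 18.9% higher, and their median was -0.31 (log2) against 0.00 for all genes tested. *Agtrap*, which encodes a protein that binds the type 1 receptor and promotes its internalization, fell from 299.5 ± 7.23 to 241 ± 20.4 CPM (-0.33, SE 0.06, adjusted *P* = 0.00131). Its groups did not overlap, which held for 26.4% of all genes tested in this comparison. The peptidase genes *Anpep* (aminopeptidase N, -0.55, adjusted *P* = 0.0177), *Nln* (neurolysin, -0.33, adjusted *P* = 0.0159), *Prep* (prolyl endopeptidase, -0.30, adjusted *P* = 0.0104) and *Ctsa* (cathepsin A, -0.62, adjusted *P* = 9.52e-05) also fell. *Rnpep* (aminopeptidase B) rose from 60.0 ± 3.18 to 77.8 ± 2.03 CPM (0.36, SE 0.05, adjusted *P* = 0.000206). None of these genes passed at HS14 in the Cx, where 2.33% of all genes were called. None passed in the OM either, where 0.00694% of all genes were called at HS14 and 0.769% at HS21.

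Between the tissues on LS, 2 of the 8 tested genes of this list were higher in the OM and 3 lower, against 21.3% and 19.5% of all genes. *Agtrap* (-1.03, adjusted *P* = 0.0119) was among the lower genes. *Agtr2*, the type 2 receptor gene, had 0 counts in all 30 libraries.

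**Figure D4:**
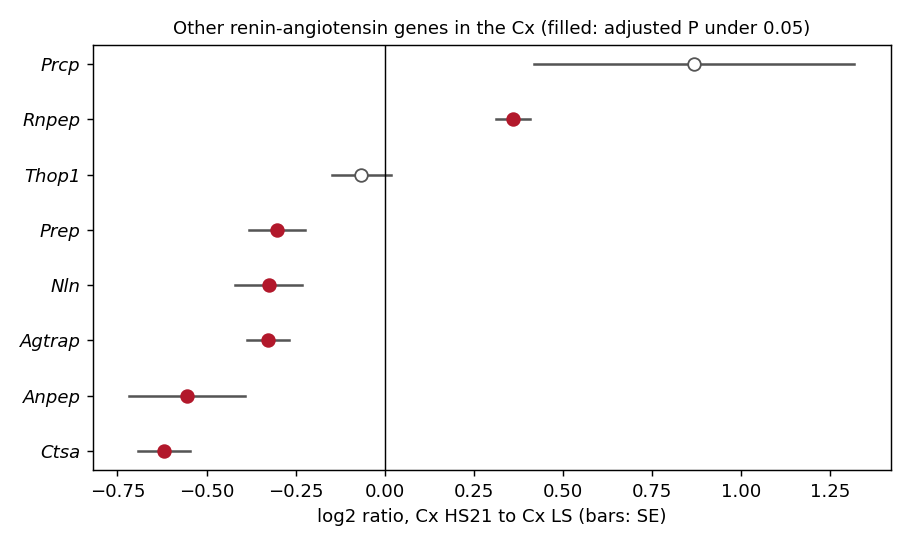
Log2 ratio of Cx HS21 to Cx LS (horizontal axis) for 8 other renin-angiotensin genes that were tested. Bars are 1 SE on either side and filled points mark an adjusted *P* under 0.05. Among the filled points *Ctsa*, *Anpep*, *Agtrap*, *Nln* and *Prep* lie left of 0 and *Rnpep* lies right of it, while the other 2 are open.

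Further lists of genes that act beside the members were read in the same way. Of 5 juxtaglomerular and macula densa genes, 4 were tested in the Cx and 2 fell at both times, against 2.33% of all genes called at HS14 and 39.4% at HS21 in either direction. *Ptgs2*, the cyclooxygenase gene of the macula densa, fell from 10.98 ± 5.73 CPM at LS to 3.15 ± 0.675 CPM at HS14 (-1.82, adjusted *P* = 0.0277) and 4.03 ± 1.55 CPM at HS21 (-1.46, adjusted *P* = 0.0139). *Rgs5*, a pericyte gene that is also in the vascular list, fell by log2 ratios of -0.56 (adjusted *P* = 0.0466) and -0.61 (adjusted *P* = 0.00223). Of 7 subunit genes of the vacuolar H+-ATPase, the partners of the *Atp6ap2* product, 3 fell at HS21 in the Cx, against 20.5% of all genes called lower and 39.4% called in either direction, namely *Atp6v1a* (-0.44, adjusted *P* = 0.000319), *Atp6v1c1* (-0.30, adjusted *P* = 0.000518) and *Atp6v0d1* (-0.28, adjusted *P* = 0.00211). On the LS diet 6 of these 7 genes were lower in the OM than in the Cx, against 19.5% of all genes called lower.

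Of 6 other peptidase genes of the brush border, 4 fell at HS21 in the Cx, with *Dpp4* (-0.65, adjusted *P* = 4.61e-05), *Xpnpep2* (-0.90, adjusted *P* = 4.97e-05) and *Mep1a* (-0.51, adjusted *P* = 0.00286) at the lowest *P*, and none rose, against 20.5% of all genes called lower. *Anpep*, which is also in the list of other renin-angiotensin genes, was among those that fell. Of the brush border genes among the members *Enpep* fell, *Mme* rose and *Ace* was not called. Of 5 genes of the kinin system, which *Ace* and *Mme* products help degrade, 2 were matched by symbol and 1 was tested. That gene, *Bdkrb2*, encoding the bradykinin B2 receptor, rose from 4.33 ± 1.01 to 8.40 ± 1.401 CPM at HS21 in the Cx (0.94, adjusted *P* = 0.00180). No gene of these 4 lists was called against LS in the OM, where 0.00694% of all genes were called at HS14 and 0.769% at HS21.

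The likeness of each member to the other protein-coding genes averaging 1 CPM or more was described by Pearson's r of log2 CPM over the 15 libraries of a tissue. These values describe libraries that share diet groups and tissue composition, and they carry no test. In the Cx, the gene most like *Agtr1a* was *Gnpda1* (r = 0.967), followed by *Phgdh* (0.964) and *Slc7a8* (0.961). For *Enpep* these were *Dolk* (0.941), *Mep1a* (0.930) and *Hykk* (0.923), and for *Mme* *Slc2a13* (0.929), *Pkd2l2* (0.915) and *Cdo1* (0.909). *Agt* was most like *Mep1b* (0.918), *Slco1a6* (0.904) and *Hnmt* (0.902), and among the genes most like *Atp6ap2* were *Tax1bp1* (0.909) and *Lmbrd1* (0.902). The highest values of *Ace* (*Map7d2*, 0.809) and *Agtr1b* (*Pusl1*, 0.793) were lower.

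In the OM, *Agtr1a* was most like *Smoc2* (0.961), *Fbln5* (0.955) and *Egflam* (0.954), none of which was among its 3 nearest genes in the Cx. *Enpep* was most like *Nadsyn1* (0.986) and *Pc* (0.982), *Agt* like *Hao2* (0.974), *Aadat* (0.973) and *Chrd* (0.972), and *Mme* like *Amot* (0.976), *Myo7a* (0.971) and *Reep3* (0.970). The nearest genes of *Atp6ap2*, *Ace* and *Agtr1b* were *Cd83* (0.942), *Lpar2* (0.919) and *Ccnd3* (0.882).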

How the data were processed

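RNA was extracted with Trizol from 30 samples of rat kidney, and poly(A) libraries that do not mark the strand were sequenced. Per the submitters' processing notes the authors used HISAT2 2.0.5, StringTie 1.3.3b and featureCounts 1.5.0-p3 on build Rnor_6.0. The deposited table holds whole-number counts per gene, not normalized, and FPKM (counts divided by gene length in kilobases and by library size), both made by the authors. Its columns of fold changes, *P* values and group means from the authors' own DESeq2 comparisons were not used.

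Groups came from the sample labels. Counts were tested with edgeR 4.0.16 in R 4.3.3 (filterByExpr on low counts, TMM scaling, quasi-likelihood F test, Benjamini-Hochberg adjustment, threshold 0.05), with the 10 libraries of a comparison in the fit, or the 20 of both tissues for the interaction. Single values were tested by exact permutation of log2 CPM with a prior count of 2. Intervals are 95% confidence intervals of the log2 ratio, based on the spread between libraries. Alternatives were DESeq2 1.42.0, its size factors in edgeR, total counts, no low-count filter, limma 3.58.1 on log2(FPKM + 1) and log2(FPKM + 0.1), all 15 libraries of a tissue in the fit, a replicate block, a prior count of 0.5, and leaving out each library. The scripts were tested on simulated data. In all 60 pairs of libraries within a group, counts differed beyond counting noise.

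Depth was 5408126 to 21842843 counts per library, which limits genes at few counts such as *Mas1*. The members and lists were chosen with earlier results of these data known. Named genes were the 8 members, the other renin-angiotensin genes called against LS with *Agtr2* and *Agtrap*, up to 3 called genes of each further list by lowest *P*, and the 3 genes most like each member. Of 93 genes in all lists, 90 were found by symbol. Some genes that this rule would name are not reported here.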

Additional observations from a re-analysis of the deposited data

Results flagged for a closer look

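Over 48 sets of 5 libraries, 1 for each member and group, a single library lay far from the other 4 in 4 sets, by a gap of more than 0.71 of the whole range. About 1 in 20 sets would be marked in this way by chance. *Agtr1b* had 3.43 CPM in Cx LS replicate 1, with the nearest library at 4.75 CPM. *Mme* had 131 CPM in Cx HS14 replicate 10, with the nearest at 96.3 CPM, in the library that also had the lowest proximal tubule markers of its group. In OM HS21 replicate 11, *Mme* had 293 CPM against 450 CPM in the nearest library, and *Atp6ap2* had 254 CPM against 225 CPM. That library also had the lowest summed proximal tubule markers of its group, 1579 CPM.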

How the results depend on the processing

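At HS21 in the Cx, 2 members were called lower and 1 higher, and total counts gave 1 lower, since *Enpep* was lost, and 3 other renin-angiotensin genes lower in place of 5. Between HS14 and HS21 in the Cx, the 2 members called lower became 1 with DESeq2 size factors, 0 with total counts, 0 with no low-count filter and 1 with limma at either pseudocount, and the 1 called higher became 0 with limma at either pseudocount. Without single libraries these counts were 0 to 2 and 0 to 1. On the LS diet, 2 members were lower in the OM, with 1 under total counts and 1 to 3 without single libraries. The interaction called 0 members higher, 1 in DESeq2 and 0 to 1 without single libraries. The cause of these changes was not tested.

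With total counts the exact permutation *P* rose above 0.05 for *Enpep* (0.0794) and *Mas1* (0.0635) at HS21 in the Cx, and for *Agtr1a* (0.0635) and *Enpep* (0.0635) between the times in the Cx. Only log2 ratios that were not called changed sign. Total counts gave 0.038 for *Agtr1b* and 0.041 for *Atp6ap2* at HS21 in the Cx, 0.019 for *Atp6ap2* between HS14 and HS21 in the OM and 0.13 for *Atp6ap2* between the tissues. Limma gave 0.005 for *Ace* at HS14 in the OM (FPKM + 0.1) and 0.24 and 0.26 for *Enpep* at HS21 in the OM (FPKM + 1 and + 0.1). Differences of mean log2 CPM with total counts became 0.032 for *Agtr1b* and 0.036 for *Atp6ap2* (Cx HS21), -0.022 for *Ace* (OM HS14), and 0.021 for *Mme* and 0.018 for *Atp6ap2* (OM HS21 to HS14). Without single libraries the ranges that crossed 0 were -0.09 to 0.196 for *Ace*, -0.124 to 0.002 for *Agtr1a* and -0.083 to 0.02 for *Enpep* at HS14 in the Cx, and -0.187 to 0.009 for *Agtr1b* at HS21. In the OM at HS14 they were -0.298 to 0.091 for *Ace*, -0.363 to 0.125 for *Mme* and -0.884 to 0.207 for *Enpep*. In the OM at HS21 they were -0.192 to 0.436 for *Agt*, -0.383 to 0.005 for *Ace*, -0.463 to 0.017 for *Mme*, -0.418 to 0.669 for *Enpep* and -0.021 to 0.071 for *Atp6ap2*. Between the times in the OM they were -0.287 to 0.049 for *Ace*, -0.147 to 0.246 for *Agtr1b*, -0.289 to 0.109 for *Mme* and -0.085 to 0.016 for *Atp6ap2*, and for the interaction -0.021 to 1.098 for *Enpep*.

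Counts over all genes moved more. DESeq2 called 914 genes at HS14 in the Cx against 330, and in the OM 110 at HS14, 721 at HS21, 31 between the times and 538 in the interaction, against 1, 112, 0 and 101. Total counts gave 0 and 44 in the OM at HS14 and HS21, no filter gave 0 at HS14 and 58 in the interaction, all 15 libraries in the fit gave 2 and 199 in the OM, limma at FPKM + 1 gave 183 in the interaction, and leaving out OM LS replicate 2 gave 1275 there. Without single libraries the counts ran from 85 (Cx LS replicate 4) to 471 at HS14 in the Cx, from 1029 (Cx HS14 replicate 8) to 3524 (Cx HS14 replicate 10) between the times in the Cx against 2330, from 9 (OM LS replicate 3) to 175 (OM HS21 replicate 13) at HS21 in the OM, from 0 to 4 (OM HS14 replicate 10) at HS14 in the OM, from 0 to 1 (OM HS21 replicate 14) between the times in the OM and from 42 (OM LS replicate 1) to 1275 in the interaction. Total counts moved the median log2 ratio of all genes to 0.13 at HS21 and 0.13 between the times in the Cx, 0.27 between the tissues and -0.16 in the interaction, and the share of calls that were higher to 72.7%, 76.4%, 75.1% and 51.4%, from 47.9%, 40.1%, 52.2% and 67.3% with TMM scaling.

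Libraries with the same number in both tissues deviated together by r of -0.08 to 0.51 over 15 pairs, with 12 above 0.1 and 13 highest with their own number. This is a hint from the data that the numbers mark the same rats. Neither the labels nor the methods state it, so the main results were left unpaired. With the replicate number as a block, 3 members were higher and 2 lower in the OM, with 5011 genes called, and the interaction called 0 members and 94 genes, with *Agtr1a* at 0.88 (adjusted *P* = 0.0926). Between the tissues, the adjusted *P* in edgeR with the block was 0.0132 for *Agt*, 0.0058 for *Ace* and 0.00505 for *Mme*. It was 0.0121 for *Agtr1a* and 0.0427 for *Agtr1b*, and each of these values was larger than without the block.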
